A study of Mus musculus with 8 samples.

Results

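The subject is a set of 10 genes that encode subunits of the BAF chromatin remodelling complex of embryonic stem cells: Smarca4, Smarca2, Smarcc1, Smarcc2, Smarcb1, Smarcd1, Smarce1, Arid1a, Arid1b and Dpf2. They were chosen by symbol, and all 10 were found among the 55292 features of the deposited count table. All 10 passed the filter on low counts, which kept 17342 genes for testing. Poly(A)-selected RNA was sequenced from mouse E14 embryonic stem cells, a line of strain 129/Ola grown on gelatin with serum and the cytokine LIF. Of the 8 samples described, 6 libraries were used, 2 in each of 3 groups. The first group was lncSmad7-/- E14 cells with the label Smad7 transfected, whose descriptions carry a mark of 24 h, and is called the Smad7-labelled knockout here. The second was lncSmad7-/- E14 cells without treatment, called the knockout; lncSmad7 is a long noncoding RNA. The third was untreated wild type E14 cells. The samples labelled as lncSmad7 transfected were not analysed here, since no column name matched them. Whether the knockout line was a single clone, and whether the untransfected cells received a control transfection, is not stated in the labels used here.

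BAF complexes, the mammalian relatives of yeast SWI/SNF, use the energy of ATP to slide or evict nucleosomes, and so set which enhancers and promoters are open. Each complex has a single ATPase, Brg1 (Smarca4) or Brm (Smarca2), a scaffold built from the Smarcc proteins, core subunits, and, in the canonical form, an Arid1 protein and a Dpf protein. In mouse embryonic stem cells the complex is known as esBAF, which carries Brg1, the Smarcc1 product and mainly Arid1a, and is largely without Brm and the Smarcc2 product. During differentiation the paralogous subunits are exchanged, and mouse embryos without Brg1 die before implantation.

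Total counts were 13392941 and 15972163 in the Smad7-labelled knockout, and lay between 19260386 and 20209760 in the knockout and wild-type libraries. Mitochondrial transcripts took 2.33% and 2.48% of counts in the Smad7-labelled knockout, 1.37% and 1.40% in the knockout, and 1.53% and 1.58% in wild type. The lncSmad7 feature had 167 and 207 counts in the Smad7-labelled knockout, 140 and 105 in the knockout, and 237 and 221 in wild type, so the knockout libraries held fewer reads of it than wild type but not 0 (log2 fold −1.05, SE 0.12, adjusted p = 3.0e-14), and the Smad7-labelled libraries held more than the knockout (0.79, SE 0.13). Which bases were deleted is not stated in the labels used here, so these reads are no full check of the deletion. Smad7 stood at 96.6 ± 3.9 CPM in the Smad7-labelled knockout, 72.5 ± 4.2 CPM in the knockout and 97.65 ± 0.048 CPM in wild type (SD, n = 2 each), so it was higher with the Smad7 label than in the knockout (log2 fold 0.41) but not above wild type (−0.01, adjusted p = 0.79). Directions given for these 2 libraries therefore rest on their label. The Y-linked gene Ddx3y had 40 and 39 counts in the Smad7-labelled knockout, 23 and 9 in the knockout, and 710 and 748 in wild type, so loss of lncSmad7 and any further difference of these cells from wild type cannot be told apart. The 10 pluripotent stem cell markers were present in every library. Their summed levels were 4054 and 4069 CPM in the Smad7-labelled knockout, and 6550 and 6614 CPM in the knockout. In wild type they were 5448 and 5477 CPM. In the knockout against wild type 7 were called higher and 3 lower, beside 34.5% and 33.3% of all genes tested. Those lower were Lin28a (log2 fold −1.04), Utf1 (−0.90) and Sall4 (−0.50). In the Smad7-labelled knockout against the knockout all 10 were called lower, or 8 with library sizes alone. Of all genes tested, 36.8% were called lower there, and 4492 of 17342 with library sizes alone. Markers of primitive and visceral endoderm (8 genes) summed to 8.90 and 9.19 CPM in the Smad7-labelled knockout, 5.96 and 5.31 CPM in the knockout, and 86.6 and 81.7 CPM in wild type, with Afp and Ttr at 0 in both wild-type libraries. Fibroblast and feeder markers (7 genes) summed to 8.58 and 8.76 CPM in the Smad7-labelled knockout. They summed to 6.17 and 5.52 CPM in the knockout, and 4.66 and 5.76 CPM in wild type. The 2 that could be tested, Col1a1 (log2 fold 1.39) and Thy1 (0.36), were higher in the Smad7-labelled knockout than in the knockout. Both were low there, at means of 2.20 and 6.32 CPM. Trophectoderm markers (8 genes) summed to between 42.2 and 52.0 CPM over all libraries. Neural markers (8 genes) summed to between 165 and 187 CPM, with Neurog2 at 0 in each library. Within the trophectoderm and neural sums single markers moved in opposite directions. Krt8 had 6.26 and 5.73 CPM in the Smad7-labelled knockout, 7.24 and 5.73 CPM in the knockout, and 22.5 and 19.8 CPM in wild type, whereas Tfap2c averaged 33.8 CPM in the Smad7-labelled knockout, 39.4 CPM in the knockout and 9.68 CPM in wild type. Map2 had 24.4 and 23.5 CPM in the Smad7-labelled knockout, 13.5 and 13.2 CPM in the knockout, and 5.54 and 5.03 CPM in wild type. Pax6 (log2 fold −1.23, SE 0.16) and Sox1 (−1.39, SE 0.097) fell in the Smad7-labelled knockout against the knockout. Their part in the results below was not tested. In bulk RNA, fewer cells of a type and less RNA per cell cannot be told apart.

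The stretches upstream of the start sites are shown first for 3 members whose transcripts were lower in the Smad7-labelled knockout than in both other groups (Smarca4, Smarcb1 and Arid1a) and for Smarca2, the member with the greatest rise. They come from RefSeq (GRCm38.p6) and run 5′ to 3′ on the strand of the gene, up to 250 bases before its start and without any base that the GENCODE annotation counts as exon. Capitals mark the GC box, letters GGGCGG or their complement, which zinc finger proteins of the Sp family bind.
Smarca4: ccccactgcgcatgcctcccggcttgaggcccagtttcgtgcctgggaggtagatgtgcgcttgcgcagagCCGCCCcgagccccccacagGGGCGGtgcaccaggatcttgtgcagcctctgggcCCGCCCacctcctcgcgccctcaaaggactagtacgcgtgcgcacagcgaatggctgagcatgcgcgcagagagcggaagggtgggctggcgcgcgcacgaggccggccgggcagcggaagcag
Smarcb1: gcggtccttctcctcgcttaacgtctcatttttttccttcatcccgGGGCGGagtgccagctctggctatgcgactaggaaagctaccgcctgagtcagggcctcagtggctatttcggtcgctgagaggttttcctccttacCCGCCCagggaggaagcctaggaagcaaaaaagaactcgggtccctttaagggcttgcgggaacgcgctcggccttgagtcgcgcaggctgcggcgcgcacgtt
Arid1a: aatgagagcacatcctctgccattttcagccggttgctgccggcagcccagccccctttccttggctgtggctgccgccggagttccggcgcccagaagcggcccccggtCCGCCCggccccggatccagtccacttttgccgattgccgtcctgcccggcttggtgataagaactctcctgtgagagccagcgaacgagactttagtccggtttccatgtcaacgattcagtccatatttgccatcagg
Smarca2: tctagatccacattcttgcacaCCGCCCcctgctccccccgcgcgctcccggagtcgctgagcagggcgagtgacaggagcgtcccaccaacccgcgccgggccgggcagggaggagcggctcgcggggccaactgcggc
The Smarca4 stretch lies at chr9:21615919-21616168 on the plus strand and the Smarcb1 stretch at chr10:75921618-75921864 on the minus strand. The Arid1a stretch is chr4:133756770-133757019 on the minus strand, and the Smarca2 stretch is chr19:26604910-26605049 on the plus strand, shortened to 140 bases by an annotated first exon that begins further upstream. The GC box was the only searched motif within these stretches, with 3 matches for Smarca4, 2 for Smarcb1, 1 for Arid1a and 1 for Smarca2. Of the 10 members, 9 had a start site in the RefSeq table, with 10 windows of 250 bases, since Arid1a has a pair of starts. Their GC content lay between 57.2% and 81.6%, against a median of 52.4% over all 32851 windows of the table. The GC box was found on either strand in 8 of the 10 windows, those of 7 genes, against 32.7% of all windows. The letters CCGGAAG, bound by ETS factors, were found in 2 windows, those of Smarca2 and Smarcc1, against 6.91% of all windows. CCAAT was found in the window of Dpf2 alone (33.8% of all windows), and CACGTG (6.02%), TATAAA (12.4%) and TGACGTCA (1.55%) were found in 0 of the 10. The windows, unlike the printed stretches, include bases annotated as exon. The CCGGAAG match of Smarca2 lies among such bases, and the Dpf2 window has 0 bases outside exons. The Smarcc1 window, from base 110131774 of chromosome 9, lies inside the gene span given below. For Smarcc2 the bases after the start matched no GENCODE transcript of the gene. Both strands were searched, and a match describes letters, not binding.

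Most subunits of the stem cell complex were at lower transcript levels in the Smad7-labelled knockout than in both other groups, while the alternative ATPase gene Smarca2 was higher. In the knockout against wild type, 7 of the 10 members fell and 2 rose, Smarca2 and Arid1b. That count of falls depended on the scaling, since with library sizes alone 3 members fell and 2 rose there (median log2 fold −0.02). With the Smad7 label against the knockout, 8 fell and Smarca2 rose, whereas with library sizes alone 6 fell and 2 rose. Against wild type, the Smad7-labelled knockout had 7 members lower and 2 higher, or 7 and 3 with library sizes alone. Of all 17342 genes tested, library sizes alone called 4496, 4492 and 4556 lower in these 3 comparisons, and 7257, 8609 and 9803 higher. In the main fit, with TMM scaling, Smarcc2 did not pass the test in any of the 3 comparisons. These calls are by edgeR's quasi-likelihood test at an adjusted p under 0.05, and the comparisons share libraries with each other.

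The background against which these counts stand was high. In the knockout against wild type 33.3% of all genes tested were called lower and 34.5% higher, 67.7% in all. In the Smad7-labelled knockout against the knockout the shares were 36.8% and 37.8%, and 74.6% in all. In the Smad7-labelled knockout against wild type they were 38.8% and 43.1%, and 81.9% in all. When calls also had to differ by 0.5 or more on the log2 scale, 2 members fell and 2 rose in the knockout against wild type (18.6% and 24% of all genes, 42.6% in all). By that rule 5 fell and 1 rose in the Smad7-labelled knockout against the knockout (22.9% and 28.9% of all genes, 51.8% in all), and 6 fell and 1 rose against wild type (29.4% and 36.5%, 65.9% in all). The median log2 fold of the members was −0.16, −0.48 and −0.93 in these comparisons, beside 0.02, 0.04 and 0.09 for all genes tested. The libraries of the groups compared did not overlap for any of the 10 members in each comparison, which also held for 82.5%, 86.3% and 89.9% of all genes.

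**Figure D1:**
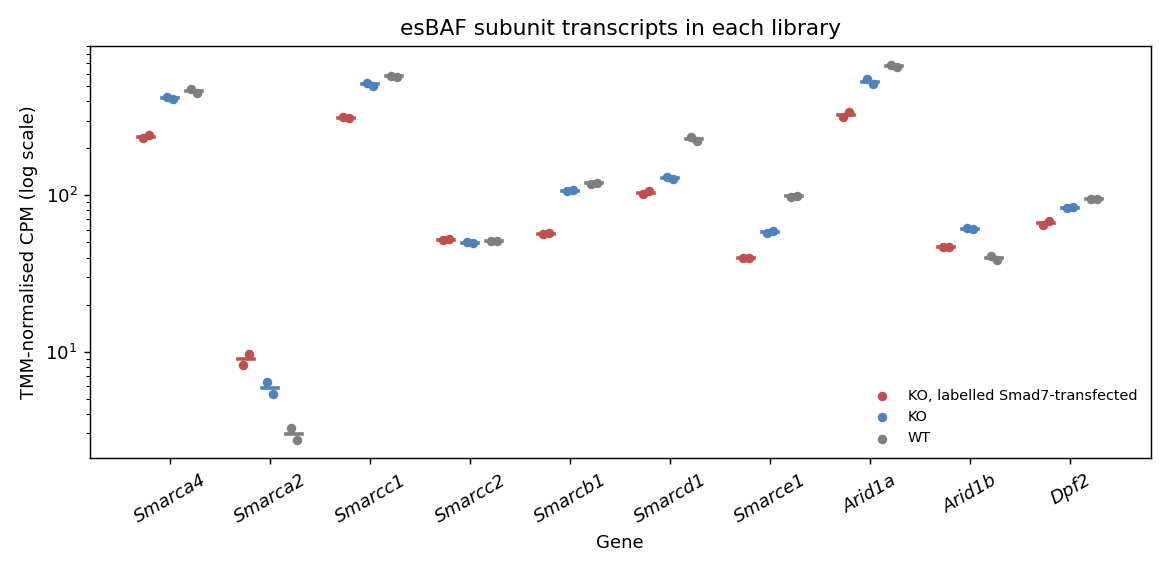
Levels of the 10 subunit transcripts, in TMM-normalised CPM on a log axis, with 1 point per library and a bar at the mean of each group of 2 libraries. Smarca2 is the lowest in every group and is highest in the Smad7-labelled knockout, while Smarcc2 lies between 49.4 and 52.1 CPM in all libraries.

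**Figure D2:**
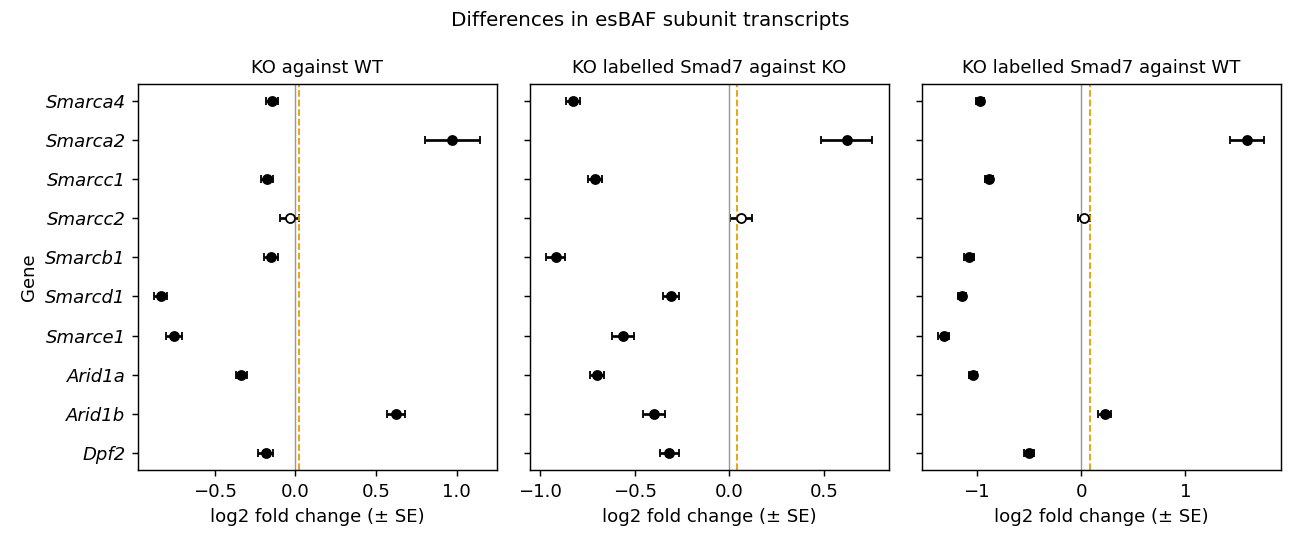
Log2 fold changes of the 10 subunits in the 3 comparisons, with SE; filled points passed the test and open points did not, and the dashed line is the median of all genes tested. The members spread from −0.83 to 0.97 in the knockout against wild type and from −1.31 to 1.59 in the Smad7-labelled knockout against wild type; with GC and length offsets Arid1b turns to −0.48 in the last comparison.

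The background also differed with expression level. All genes tested were divided into quartiles by mean CPM over the 6 libraries. The upper quartile, above 54.99 CPM, holds 7 members, Smarca4, Smarcc1, Smarcb1, Smarcd1, Smarce1, Arid1a and Dpf2. Its median log2 fold was −0.14 in the knockout against wild type, −0.35 in the Smad7-labelled knockout against the knockout and −0.48 in the Smad7-labelled knockout against wild type. Genes called lower made up 54.5%, 66.7% and 68.0% of that quartile, and all 7 members were called lower in each comparison. Smarcc2 and Arid1b lie in the quartile below, with medians of 0.02, −0.11 and −0.06. Smarca2 lies in the quartile from 1.64 to 13.3 CPM, whose medians were 0.26, 0.31 and 0.56, and of whose genes 43.9%, 48.1% and 55.9% were called higher. How much of the members' differences goes with their level was not tested further.

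Of the ATPases, Smarca4 encodes Brg1, the motor of the stem cell complex. Its gene spans bases 21616169 to 21704230 of chromosome 9 (GRCm38, plus strand). Its level was 231 and 242 CPM in the Smad7-labelled knockout, 425 and 414 CPM in the knockout, and 477 and 450 CPM in wild type. The Smad7-labelled libraries lay far below the others, and none of the groups overlapped. Smarca4 fell by 0.82 on the log2 scale in the Smad7-labelled knockout against the knockout (SE 0.037, adjusted p = 7.8e-47), a fold of 0.565. In the knockout against wild type the change was −0.14 (SE 0.036, adjusted p = 1.9e-04). That smaller difference depended on the scaling: it was 0.00 with library sizes alone, where it did not pass, and −0.53 with offsets for GC content and transcript length.

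Smarca2 encodes Brm, the alternative ATPase, and is at chromosome 19, 26605050 to 26778322. It had 128 and 179 counts in the Smad7-labelled knockout, 125 and 102 in the knockout, and 55 and 49 in wild type, or 8.26 and 9.68 CPM in the Smad7-labelled knockout, 6.37 and 5.36 CPM in the knockout, and 3.24 and 2.74 CPM in wild type. It was the only member whose level was lowest in wild type and highest in the Smad7-labelled knockout, without overlap between groups, among the 10. Smarca2 rose in the knockout against wild type by a log2 fold of 0.97 (SE 0.17, adjusted p = 2.6e-07), and in the Smad7-labelled knockout against the knockout by 0.62 (SE 0.14, adjusted p = 2.2e-05). Against wild type the Smad7-labelled knockout was 3.02-fold higher (log2 fold 1.59, SE 0.16, adjusted p = 2.1e-17). With its low counts the precision was the poorest of the 10, and the second difference was 0.49 without replicate 2 of the Smad7-labelled knockout and 0.48 without replicate 2 of the knockout, under the minimum of 0.5 but still past the test. With GC and length offsets the first difference was 0.64.

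The scaffold genes moved apart. Smarcc1, at chromosome 9, 110117708 to 110240178, encodes the scaffold protein BAF155 that stem cells use. It stood at 314 and 311 CPM in the Smad7-labelled knockout, 524 and 498 CPM in the knockout, and 579 and 574 CPM in wild type. The Smad7-labelled libraries were the lowest and nearly equal. Smarcc1 fell by 0.71 on the log2 scale in the Smad7-labelled knockout against the knockout (SE 0.036, adjusted p = 2.5e-41), and the change in the knockout against wild type was −0.17 (SE 0.035, adjusted p = 4.5e-06). With library sizes alone these were −0.46 and −0.03, of which the second missed the threshold; the offsets for GC content and length put the second at −0.42. The gene body overlaps that of Dhx30 on the other strand, a helicase gene at 115 and 118 CPM in the Smad7-labelled knockout, 167 and 172 CPM in the knockout, and 227 and 217 CPM in wild type, and without a stated strand setting reads of the overlap cannot be separated.

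Smarcc2 encodes BAF170, the scaffold paralogue that replaces the Smarcc1 product in part as cells differentiate, and is at chromosome 10, 128459248 to 128490482. It measured 51.5 and 52.1 CPM in the Smad7-labelled knockout, 49.9 and 49.4 CPM in the knockout, and 51.1 and 50.7 CPM in wild type. All libraries were within a narrow band. The log2 fold was −0.04 (SE 0.057, adjusted p = 0.60) in the knockout against wild type, 0.06 (SE 0.057, adjusted p = 0.32) in the Smad7-labelled knockout against the knockout, and 0.03 (SE 0.057, adjusted p = 0.67) in the Smad7-labelled knockout against wild type. No direction can be given, since the fold passed as −0.39 in the first comparison with GC and length offsets, as 0.31 in the second with library sizes alone, and in the third as 0.42 with library sizes alone and as −0.36 with the offsets.

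Among the core subunits, Smarcb1 encodes the protein that contacts the nucleosome face and is a tumour suppressor. It is at chromosome 10, 75896769 to 75921617, on the minus strand. Its level was 56.3 and 57.1 CPM in the Smad7-labelled knockout, 106.7 and 107.5 CPM in the knockout, and 118 and 120.3 CPM in wild type. Both Smad7-labelled libraries were far below all others, and the fall of 0.92 on the log2 scale against the knockout (SE 0.049, adjusted p = 6.4e-40) was the greatest of the 10 in that comparison, though with GC and length offsets Smarce1 (−1.24) fell further than Smarcb1 (−1.09). The change in the knockout against wild type was −0.15 (SE 0.043, adjusted p = 0.0012), and −0.01 with library sizes alone, where it did not pass, or −0.42 with GC and length offsets.

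Smarcd1, which encodes BAF60a, a subunit that bridges the complex to transcription factors, had another order. The gene lies at chromosome 15, 99702129 to 99713991. It stood at 102 and 106.3 CPM in the Smad7-labelled knockout, 131 and 127 CPM in the knockout, and 237 and 223 CPM in wild type. The wild-type libraries stood apart, and the gap between the knockout groups was smaller. Smarcd1 fell in the knockout against wild type by 0.83 on the log2 scale (SE 0.040, adjusted p = 7.8e-45), the greatest fall of the 10 there, and by 0.31 in the Smad7-labelled knockout against the knockout (SE 0.043, adjusted p = 1.1e-10), a step that did not pass with library sizes alone (−0.06).

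Smarce1 encodes BAF57, a subunit with an HMG domain, and lies at chromosome 11, 99209047 to 99231017. It had 39.4 and 39.7 CPM in the Smad7-labelled knockout, 57.5 and 59.5 CPM in the knockout, and 97.6 and 99.3 CPM in wild type. The groups formed 3 separate levels. Smarce1 fell by 0.75 on the log2 scale in the knockout against wild type (SE 0.049, adjusted p = 6.7e-31) and by 0.56 in the Smad7-labelled knockout against the knockout (SE 0.057, adjusted p = 4.0e-17). Its transcript has the lowest GC content of the 10, 39.1%, and GC and length offsets moved the first to −0.12 and the second to −1.24, while the change in the Smad7-labelled knockout against wild type was −1.31 in the main fit and −1.36 with them. An annotated pseudogene copy, Smarce1-ps1, had between 1 and 10 counts in these libraries.

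The Arid1 genes encode the large DNA-binding subunits that define canonical BAF. Arid1a, at chromosome 4, 133679008 to 133756769, was at 314 and 340.2 CPM in the Smad7-labelled knockout, 551 and 513 CPM in the knockout, and 684 and 658 CPM in wild type. Each group lay below the next without overlap. Arid1a fell by 0.33 on the log2 scale in the knockout against wild type (SE 0.036, adjusted p = 4.0e-15) and by 0.70 in the Smad7-labelled knockout against the knockout (SE 0.037, adjusted p = 5.3e-37). These falls were 0.19 and 0.45 with library sizes alone and 0.70 and 1.00 with GC and length offsets, all past the test.

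Arid1b encodes the alternative, mutually exclusive subunit and is at chromosome 17, 4994332 to 5347656. It had 46.46 and 46.51 CPM in the Smad7-labelled knockout, 61.7 and 60.8 CPM in the knockout, and 41.1 and 38.5 CPM in wild type. It was the only member of the 10 that peaked in the untransfected knockout without overlap between groups. Arid1b rose by 0.62 in the knockout against wild type (SE 0.058, adjusted p = 1.0e-19) and fell by 0.40 in the Smad7-labelled knockout against the knockout (SE 0.056, adjusted p = 1.6e-10), with 0.32 and −0.80 when GC and length offsets were used. The difference of the Smad7-labelled knockout from wild type, 0.23 (SE 0.061, adjusted p = 5.0e-04), has no firm direction. It did not pass by DESeq2 (0.18, adjusted p = 0.060) or without wild-type replicate 2 (0.16, adjusted p = 0.059), and turned to −0.48 with the offsets (adjusted p = 8.0e-15).

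Dpf2 encodes a reader of modified histone tails through PHD fingers and lies at chromosome 19, 5896516 to 5913010, on the minus strand. Its level was 64.3 and 68.7 CPM in the Smad7-labelled knockout, 82.4 and 83.7 CPM in the knockout, and 94.1 and 94.4 CPM in wild type. The steps between the groups were small but did not overlap. Dpf2 fell by 0.32 on the log2 scale in the Smad7-labelled knockout against the knockout (SE 0.050, adjusted p = 5.4e-09), with −0.18 in the knockout against wild type (SE 0.047, adjusted p = 3.0e-04). With library sizes alone neither passed (−0.07 and −0.04), and with GC and length offsets both did (−0.19 and −0.46). An antisense transcript at the locus, Gm42067, had between 4 and 29 counts.

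Against wild type, the Smad7-labelled knockout showed the sum of these steps. The greatest fall was that of Smarce1 (log2 fold −1.31; Arid1a, at −1.70, with GC and length offsets), then Smarcd1 (−1.14), Smarcb1 (−1.07), Arid1a (−1.03), Smarca4 (−0.97), Smarcc1 (−0.88) and Dpf2 (−0.50), with SEs from 0.036 to 0.054. All 7 passed, the largest adjusted p being 4.0e-18 for Dpf2, and they also passed with the same sign under RLE scaling, library sizes alone and GC and length offsets. Summed over the 10 members, levels were 1227 and 1274 CPM in the Smad7-labelled knockout, 1995 and 1918 CPM in the knockout, and 2382 and 2310 CPM in wild type.

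**Figure D3:**
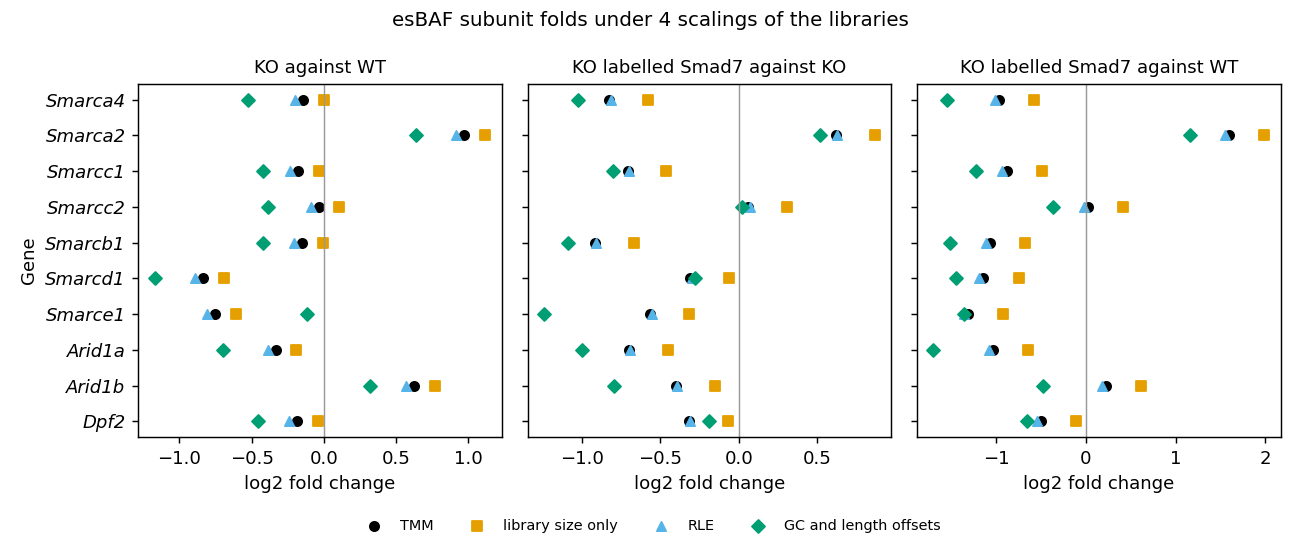
Log2 fold changes of the 10 subunits under TMM scaling, library size alone, RLE scaling and offsets for GC content and transcript length, in the 3 comparisons. In the knockout against wild type, Smarca4, Smarcc1, Smarcb1 and Dpf2 lie between −0.04 and 0.00 with library size alone and between −0.53 and −0.42 with the offsets, while Arid1b turns to −0.48 with the offsets in the Smad7-labelled knockout against wild type.

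The choice of scaling shifts all genes together. With library sizes alone the median gene stood at a log2 fold of 0.17 in the knockout against wild type, 0.29 in the Smad7-labelled knockout against the knockout and 0.48 in the Smad7-labelled knockout against wild type, against which the folds of 0.00 to −0.04 given above are to be read. In the TMM fit those 4 members lay at −0.14 to −0.18 in the knockout against wild type, close to the median of −0.14 for genes of their own quartile of level. Under that scaling 61.7%, 65.7% and 68.3% of calls were higher, against 50.9%, 50.7% and 52.6% with TMM. Across TMM, RLE, library size and GC and length scaling, Smarcd1, Smarce1 and Arid1a were lower and Smarca2 and Arid1b higher in the knockout against wild type each time. Between the Smad7-labelled knockout and the knockout the same held for Smarca4, Smarcc1, Smarcb1, Smarce1, Arid1a and Arid1b as lower and Smarca2 as higher.

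Per length of the principal transcript Smarcc1 was the most abundant and Smarca2 the least abundant of the 10 in each group. Levels in RPKM (TMM-scaled CPM per kilobase) were, in wild type, 100.9 ± 0.70 for Smarcc1, 82.0 ± 2.2 for Arid1a, 73.0 ± 3.0 for Smarca4, 71.7 ± 1.1 for Smarcb1 and 69.5 ± 3.1 for Smarcd1 (SD, n = 2). The libraries of Smarca4 overlapped those of Smarcb1, and those of Smarcb1 overlapped those of Smarcd1, so their order is not settled. Smarce1 (33.7 ± 0.42 RPKM), Dpf2 (28.4 ± 0.066), Smarcc2 (11.2 ± 0.057), Arid1b (3.51 ± 0.16) and Smarca2 (0.505 ± 0.060) followed without overlap. Smarcc1 also came first in the Smad7-labelled knockout at 54.7 ± 0.40 RPKM, ahead of Arid1a (40.02 ± 2.2) and Smarca4 (37.2 ± 1.3), and Dpf2 (20.1 ± 0.93) stood above Smarce1 (13.55 ± 0.066). In the knockout the libraries of Arid1a (65.1 ± 3.2) overlapped those of Smarca4 (66.0 ± 1.2) and Smarcb1 (64.5 ± 0.36), whereas Smarca4 and Smarcb1 did not overlap. All of these lay below Smarcc1 (89.3 ± 3.2), and Smarca2 was again the lowest at 0.991 ± 0.12 RPKM. With the merged length of all annotated exons, an alternative added after seeing the data, Smarcb1 moved to 15.0 RPKM in wild type and below Smarcd1 (57.1), since 7930 bases of exon are annotated beside a principal transcript of 1660. By that length Arid1a came below Smarca4, with means of 28.5 and 36.6 RPKM in the Smad7-labelled knockout and 58.4 and 71.6 RPKM in wild type. Smarcc1 (73.6 RPKM in wild type) then stood close to Smarca4, and their libraries overlapped in wild type and in the knockout.

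Ratios of paralogous subunits within a library do not depend on how libraries are scaled against each other. Smarca2 made up 3.45% and 3.84% of the counts of both ATPase genes in the Smad7-labelled knockout, 1.48% and 1.28% in the knockout, and 0.675% and 0.605% in wild type. The exact 95% binomial interval was 2.89% to 4.09% in replicate 1 of the Smad7-labelled knockout and 0.509% to 0.878% in wild-type replicate 1, and covers counting error only. So Smarca4 made up the bulk in each library, and the share of Smarca2 was highest with the Smad7 label. The mean log2 ratio of Smarca2 to Smarca4 was −4.73 in the Smad7-labelled knockout, −6.16 in the knockout and −7.28 in wild type. The knockout lay 1.12 above wild type, and the Smad7-labelled knockout 1.44 above the knockout, with pooled SDs of 0.13 in both.

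Smarcc2 made up 14.1% and 14.4% of the counts of both scaffold genes in the Smad7-labelled knockout, 8.70% and 9.04% in the knockout, and 8.10% and 8.12% in wild type. The log2 ratio was 0.77 higher in the Smad7-labelled knockout than in the knockout (pooled SD 0.034) and 0.14 higher in the knockout than in wild type (pooled SD 0.030). With GC and length offsets the second difference was 0.035.

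Arid1b made up 12.9% and 12.0% of the counts of both Arid1 genes in the Smad7-labelled knockout, 10.1% and 10.6% in the knockout, and 5.67% and 5.52% in wild type. The log2 ratio was 0.96 higher in the knockout than in wild type (pooled SD 0.045) and 0.30 higher in the Smad7-labelled knockout than in the knockout (pooled SD 0.069). The groups of each of the 3 ratios did not overlap, and every library left out in turn gave the same sign. With 2 libraries against 2, an exact two-sided permutation test cannot go below p = 0.333, so no test was run on the ratios. The medians of all genes by quartile of level, given above, moved in the same direction, with lowly expressed genes up relative to highly expressed ones, and these ratios each set a low gene over a high one.

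**Figure D4:**
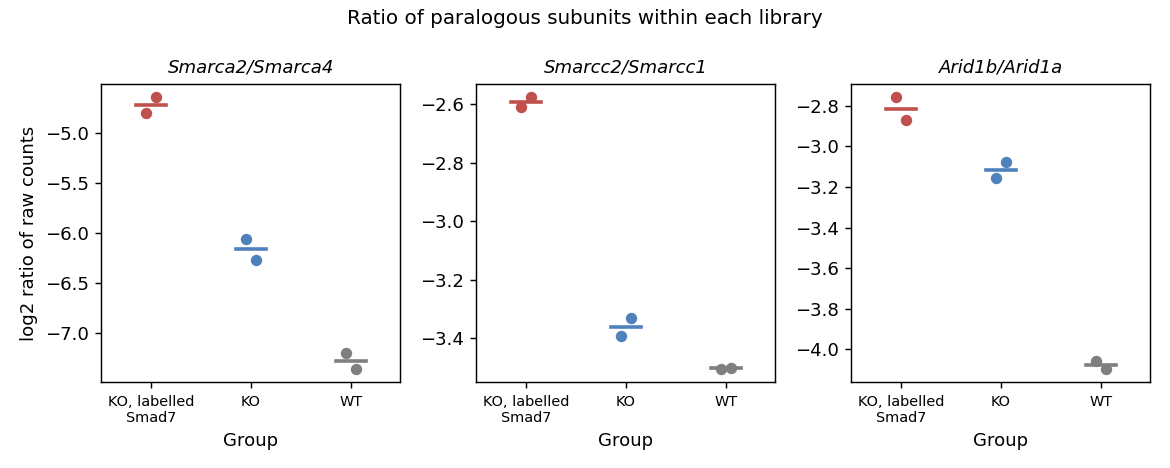
Log2 ratio of raw counts of paralogous subunits within each library, 1 point per library and a bar at the group mean. Each ratio is lowest in wild type and highest in the Smad7-labelled knockout; Smarca2/Smarca4 has means of −4.73, −6.16 and −7.28 from left to right.

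The rest of the BAF family was examined as lists. The background for these counts was the same as above. Of all genes tested, 33.3%, 36.8% and 38.8% were called lower in the 3 comparisons, and 34.5%, 37.8% and 43.1% higher. Of 14 other shared and canonical subunits 13 could be tested, since the neuronal actin-related gene Actl6b had at most 2 counts per library. In the knockout against wild type 6 fell and 1 rose (median log2 fold −0.16), in the Smad7-labelled knockout against the knockout 8 fell and 2 rose (−0.32), and in the Smad7-labelled knockout against wild type 8 fell and 4 rose (−0.55). Actl6a, the actin-related subunit of stem and progenitor cells, fell to 0.42 of its level in the Smad7-labelled knockout against the knockout (adjusted p = 5.9e-64), at 101.1 and 106.3 CPM, against 249 and 245 CPM in the knockout. Smarcd2, a paralogue of Smarcd1, fell by 0.87 in the same comparison (SE 0.055). Dpf1, a paralogue of Dpf2 known from neurons, stood at 10.5 and 9.95 CPM in the Smad7-labelled knockout, 24.06 and 23.98 CPM in the knockout, and 15.57 and 16.05 CPM in wild type, so like Arid1b it was highest in the knockout. The zinc finger genes Bcl11a (log2 fold 1.00, SE 0.11, adjusted p = 6.5e-16) and Bcl11b (1.72, SE 0.19, adjusted p = 5.7e-15) were the pair that rose in the Smad7-labelled knockout against the knockout. Bcl11b was low, with 91 and 115 counts in the Smad7-labelled knockout, 36 and 35 in the knockout, and 40 and 35 in wild type. Bcl11a stood at 16.1 and 16.9 CPM in the Smad7-labelled knockout, 8.61 and 7.89 CPM in the knockout, and 14.3 and 14.8 CPM in wild type. It fell by 0.82 in the knockout against wild type (SE 0.11), Bcl7b by 0.49 (SE 0.079) and Actb by 0.40 (SE 0.034), and Ss18 fell by 0.55 in the Smad7-labelled knockout against wild type (SE 0.044). With library sizes alone the counts in the knockout against wild type were 3 lower and 4 higher, beside 4496 and 7257 of all 17342 genes tested. Those in the Smad7-labelled knockout against the knockout were 5 and 5, beside 4492 and 8609. Reads of Actb may be shared with near-identical actin genes and pseudogenes.

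PBAF carries a polybromo protein, Arid2 and Phf10 in place of Arid1 and Dpf proteins. Pbrm1, which encodes the polybromo protein, had 219 and 213 CPM in the Smad7-labelled knockout, 124 and 122 CPM in the knockout, and 285 and 273 CPM in wild type. Its lowest level was thus in the untransfected knockout, an order that none of the 10 subunits above had with a call in both steps. Pbrm1 fell by 1.19 on the log2 scale in the knockout against wild type (SE 0.039, adjusted p = 3.9e-63) and rose by 0.81 in the Smad7-labelled knockout against the knockout (SE 0.040, adjusted p = 2.8e-43). Of the 4 PBAF genes 3 fell and 1 rose in both comparisons, with Arid2 at −0.15 and −0.24, Brd7 at −0.09 and −0.52, and Phf10 at 0.12 and −0.25. With library sizes alone Arid2 and Phf10 did not pass in the second, and Arid2 and Brd7 did not pass in the first; Phf10 did not pass in the first with RLE scaling. Of the non-canonical complex, the scaffold paralogues Bicra (0.77, SE 0.088) and Bicral (0.44, SE 0.040) rose in the knockout against wild type, and the bromodomain gene Brd9 fell (−0.14, SE 0.060), though Brd9 did not pass with library sizes alone. With the Smad7 label against the knockout Bicral (−0.49) and Brd9 (−0.38) fell, Brd9 not with library sizes alone, and Bicra was at −0.07 (adjusted p = 0.42), with no settled direction over the scalings.

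**Figure D5:**
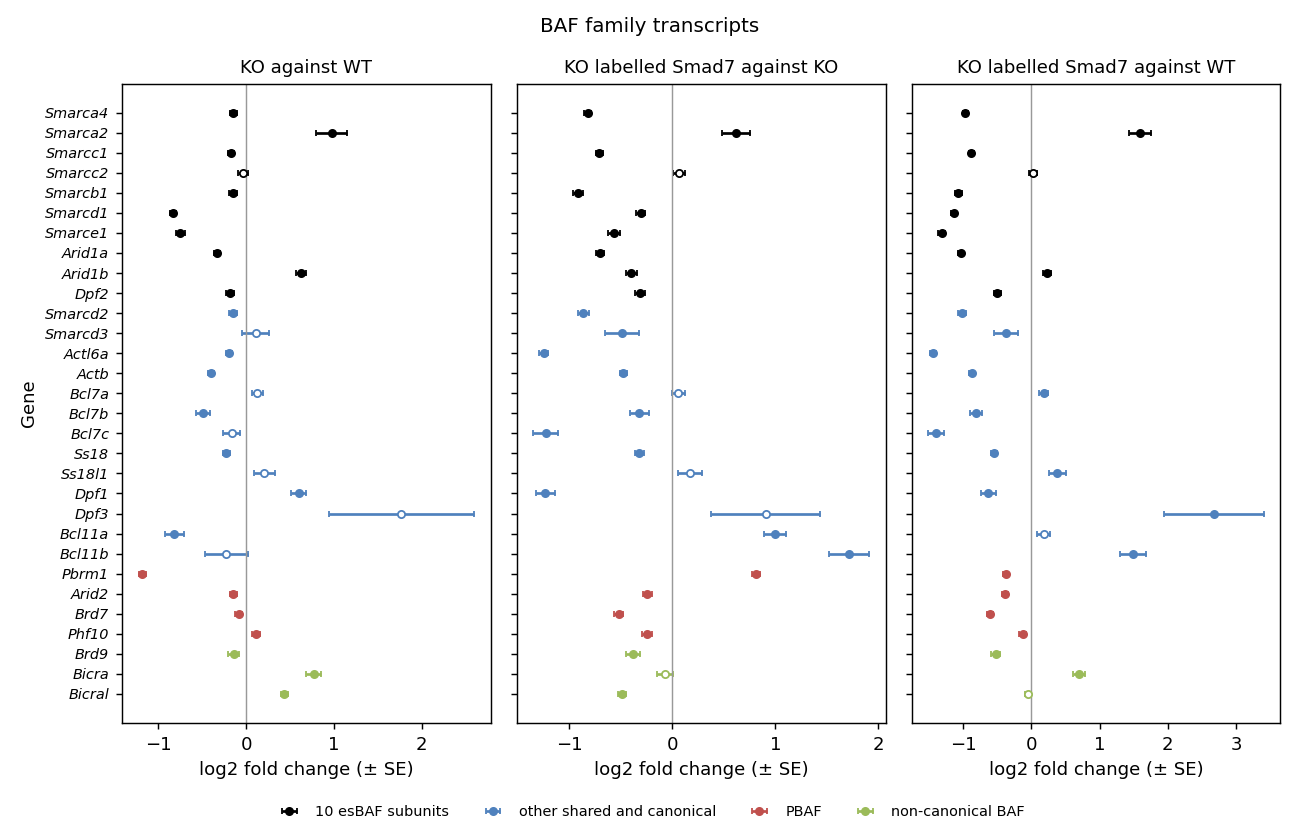
Log2 fold changes with SE of the BAF family genes tested, by list, in the 3 comparisons; filled points passed the test. Pbrm1 lies at −1.19, 0.81 and −0.37 in the panels from left to right; the last did not pass with library sizes alone (0.02).

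For comparison, 16 genes of other remodeller families (ISWI, INO80, SRCAP and EP400) had 8 lower and 4 higher in the knockout against wild type (median −0.11). Against the knockout, the Smad7-labelled knockout had 10 lower and 5 higher (median −0.37), beside 8 and 1 of the 10 esBAF members with a median of −0.48. Against wild type it had 14 lower and 2 higher (median −0.45). With library sizes alone the counts were 6 lower and 8 higher in the first of these, 9 and 5 in the second and 5 and 5 in the third. Of all 17342 genes tested, that scaling called 4496 lower and 7257 higher in the first, 4492 and 8609 in the second, and 4556 and 9803 in the third. The helicase genes Ruvbl1 (−1.35) and Ruvbl2 (−0.72) had the smallest adjusted p of that list in the Smad7-labelled knockout against the knockout. In the knockout against wild type these were the ISWI ATPase gene Smarca5 (−0.98) and Rsf1 (−1.31). No test of the difference between the lists was made.

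Other genes had nearly the same profile as single members over the 6 libraries. By Euclidean distance of log2 CPM centred per gene, among 10329 named genes with a mean of at least 5 CPM, the 3 closest to Smarca4 were Acly, Eif4b and Fbxo22, at distances of 0.056 to 0.061. Acly, the enzyme that makes cytosolic acetyl-CoA, changed by −0.14 in the knockout against wild type and −0.82 in the Smad7-labelled knockout against the knockout, beside −0.14 and −0.82 for Smarca4. Closest to Arid1a were Gtf3c4, Vcl and Lsg1 (0.068 to 0.078). Closest to Smarca2 were Tspyl4, Snx29 and Cers4 (0.14 to 0.20), of which Tspyl4 changed by 0.99 and 0.64. These are likenesses over 3 groups of 2 libraries. Ep300, which encodes the acetyltransferase p300 that the study concerns, stood at 209 and 222 CPM in the Smad7-labelled knockout, 239 and 233 CPM in the knockout, and 325 and 297 CPM in wild type. It fell by 0.40 on the log2 scale in the knockout against wild type (SE 0.038), close to the 0.33 of Arid1a, and by 0.13 in the Smad7-labelled knockout against the knockout (SE 0.039).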

How the data were processed

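The deposited values are whole raw counts of reads, 1 row per gene symbol. STAR and featureCounts 1.6.3 and the builds mm10 and GRCm38 are named in the submitters' processing notes, without saying what each did; annotation, strand setting and treatment of shared reads are not given in these sources. Columns were matched to samples by name, and 2 columns that matched no sample alone were not used. Counts were filtered with filterByExpr, scaled with TMM factors and fitted over 6 libraries in 3 groups (3 residual degrees of freedom) with edgeR 4.0.16 (robust quasi-likelihood; R 4.3.3), with Benjamini-Hochberg adjustment over 17342 genes. SEs are the log2 fold over the square root of F. CPM values use TMM-scaled library sizes, and means are given with the SD of 2 libraries. The fit was tested on simulated data. The series calls the replicates biological without saying how they were separated; p-values reflect only how far these libraries vary, which may be technical. Replicates differed beyond sampling noise (chi-square per degree of freedom 1.57 to 1.89). Lengths, positions and GC content came from GENCODE M21 (GRCm38), matched by symbol.

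Members, lists and tests were chosen with earlier results of these data known. Named genes were all members, up to 4 genes of each BAF and remodeller list with the smallest adjusted p per comparison, the 3 nearest profiles of 3 members, and Smad7, lncSmad7 and Ep300; Ddx3y, Dhx30, Gm42067, Smarce1-ps1, Bcl11b and the single markers were added after values were seen. Alternatives were RLE scaling, library size alone, DESeq2 1.42.0, other filters, a fit of the 4 libraries compared, a replicate block, GC and length offsets (mgcv 1.9.3, for 97.8% of genes) and each library left out in turn.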

Additional observations from a re-analysis of the deposited data

How the results depend on the processing

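With library size alone, 3 members were called lower in the knockout against wild type, against 7, beside 4496 of all genes against 5770. In the Smad7-labelled knockout against the knockout that setting and the filter of at least 1 CPM in 4 libraries each called 2 members higher, against 1. Of all genes they called 8609 and 5363 higher, against 6558, the filter keeping 13582 genes. With the filter 8 members were lower, so all 10 passed, Smarcc2 included. With a minimum log2 fold of 0.5, library size alone gave 2 members lower against 5 and 2234 genes lower against 3967 in that comparison, and 2 members higher against 1 and 3008 genes lower against 5104 in the Smad7-labelled knockout against wild type. GC and length offsets left 1 of 2 members higher by at least 0.5 in the knockout against wild type. They and DESeq2 left 1 of 2 members higher in the Smad7-labelled knockout against wild type, where Arid1b went to −0.48 with the offsets. Leaving out each library gave 0 to 1 members higher by at least 0.5 in the Smad7-labelled knockout against the knockout, and 1 to 2 members higher in the Smad7-labelled knockout against wild type, the lowest without wild-type replicate 2. A group left with 1 library was assumed to vary like the others. With the offsets, an alternative added after seeing the data for ratios, Smarca2/Smarca4 was 2.71 above wild type in the Smad7-labelled knockout (2.55 in raw counts). Smarcc2/Smarcc1 differed by 0.035, 0.83 and 0.86 in the 3 comparisons (0.14, 0.77 and 0.91 in raw counts), and Arid1b/Arid1a by 1.02 in the knockout against wild type and 0.20 with the Smad7 label against the knockout (0.96 and 0.30). The cause of these shifts was not tested. Equal replicate numbers are not said to pair the samples. Deviations of libraries with equal numbers correlated at 0.18, 0.077 and 0.058 across 9683 genes, so the numbers were not taken as pairs. With a replicate block 7 members were lower and 2 higher in the knockout against wild type, 8 and 1 in the second comparison and 7 and 2 in the third. Of all 17342 genes the block gave 5825 lower and 5997 higher in the first, 6427 and 6555 in the second, and 6738 and 7481 in the third. Depth limits Smarca2 most, with 49 to 179 counts per library.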
